A study of Mus musculus with 4 samples.

Results

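The transcripts of 9 complement genes were followed through the cell types of hypoxic mouse lungs. C1qa, C1qb, C1qc, C3, C4b, C7, Cfb, Serping1 and Cd55 were chosen by name as components and regulators of the complement system, and each had 1 entry among the 31253 gene identifiers of the count tables. The study compared Vegfr2Y949F mice, in which a tyrosine of the VEGF receptor VEGFR2 (gene Kdr) is replaced by phenylalanine, with wild-type (WT) mice. Both genotypes were on the C57BL/6J background, were 6 to 8 weeks old and had spent 6 weeks in hypoxia; no normoxic lung was analysed here. Lung cells of 2 mice were pooled per library, with 2 libraries per genotype, named A and B for a set that the labels do not explain, so that 4 libraries stood for 8 mice and every p-value below measures the spread between 2 pools per genotype.

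Complement is a cascade of plasma and tissue proteins that marks targets and punctures membranes. In the classical pathway, C1q, a complex of A, B and C chains, binds antibody or altered surfaces, and its proteases C1r and C1s cleave C4 and C2 to form an enzyme that cleaves C3. In the alternative pathway, factor B (gene Cfb) joins cleaved C3 in another such enzyme, and C7 is one of the terminal proteins that assemble into the membrane attack complex. C1 inhibitor (gene Serping1) inactivates C1r and C1s, and CD55 is a cell-surface protein that takes the C3-cleaving enzymes apart. The liver supplies most complement in plasma, and macrophages and stromal cells are known tissue sources of C1q and C3.

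All 9 genes lie on the minus strand in the mm10 (GRCm38) assembly. The 3 C1q genes stand side by side within 18675 bases, with C1qb at chr4:136880129-136886187, C1qc at chr4:136889804-136893065 and C1qa at chr4:136895917-136898803. C4b, at chr17:34728380-34743882, and Cfb, at chr17:34856374-34862518, are separated by 112491 bases. C3 lies at chr17:57203970-57228136, C7 at chr15:4988762-5063740, Serping1 at chr2:84765387-84775444 and Cd55 at chr1:130439027-130462744. The value of Cfb is uncertain where it overlaps the protein-coding gene Gm20547 on the same strand, and those of C4b and Cd55 where reads could be shared with the near-identical C4a and with Cd55b.

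RefSeq promoter windows (GRCm38.p6, 250 bases before to 50 after the gene start, printed 5′ to 3′ on the gene's strand) were present for 5 of the 9 genes. The 4 shown are of C1qb and C1qc, whose transcripts followed each other across cell types, and of C3 and C7, which had their highest levels in fibroblasts. Capitals mark matches to GAGGAA, a PU.1-type motif, in C1qb and C1qc, to TTGCNNAA, a C/EBP-type motif, in C3, to TTCNNNGAA, a STAT-type motif, in C7, and to TATAAA, the TATA box, in C3 and C7. The window of C1qb is chr4:136886151-136886450, that of C1qc chr4:136892865-136893164, that of C3 chr17:57228087-57228386 and that of C7 chr15:5063724-5064023.
C1qb: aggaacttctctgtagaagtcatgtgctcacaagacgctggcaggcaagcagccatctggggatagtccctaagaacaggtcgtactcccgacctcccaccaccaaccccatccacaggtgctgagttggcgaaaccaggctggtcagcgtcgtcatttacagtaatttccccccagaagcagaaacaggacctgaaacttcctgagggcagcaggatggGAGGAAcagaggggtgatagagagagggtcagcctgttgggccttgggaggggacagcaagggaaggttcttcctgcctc
C1qc: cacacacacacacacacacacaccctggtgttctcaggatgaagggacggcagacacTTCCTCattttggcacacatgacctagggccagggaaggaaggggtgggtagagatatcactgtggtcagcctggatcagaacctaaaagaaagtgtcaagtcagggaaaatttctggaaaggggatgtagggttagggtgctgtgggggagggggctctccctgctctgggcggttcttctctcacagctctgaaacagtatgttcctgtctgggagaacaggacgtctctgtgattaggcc
C3: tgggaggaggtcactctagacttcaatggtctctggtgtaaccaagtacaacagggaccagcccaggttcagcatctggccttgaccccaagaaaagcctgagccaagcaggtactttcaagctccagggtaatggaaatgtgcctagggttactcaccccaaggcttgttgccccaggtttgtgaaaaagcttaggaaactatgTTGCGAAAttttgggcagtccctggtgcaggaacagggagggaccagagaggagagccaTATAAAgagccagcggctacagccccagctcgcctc
C7: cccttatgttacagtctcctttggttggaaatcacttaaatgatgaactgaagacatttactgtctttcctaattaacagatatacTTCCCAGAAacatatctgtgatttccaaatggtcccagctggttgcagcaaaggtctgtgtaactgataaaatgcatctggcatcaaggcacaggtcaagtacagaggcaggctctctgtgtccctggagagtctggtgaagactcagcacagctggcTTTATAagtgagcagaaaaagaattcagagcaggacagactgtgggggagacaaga
The motifs were searched on both strands, and no 2 of the marked matches overlap. GAGGAA matched in C1qb as printed and in C1qc on the opposite strand, as TTCCTC, and 28.3% of 32851 promoter windows of the same length held it. TTGCNNAA matched in C3 (10.8% of windows), TTCNNNGAA in C7 (8.30%), and TATAAA in C3 as printed and in C7 on the opposite strand, as TTTATA (13.6%). The TATAAA matches began at base 265 of the C3 window and base 245 of the C7 window, where the gene start follows base 250. TGCTGAC, a MAF-type motif, matched in none of the 4 windows shown and in that of Cd55 (4.67%). A match in a window is a description of these letters.

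The 4 libraries held 83606389 to 96521589 UMIs (unique molecules) in 11992 to 15160 barcodes. Among the barcodes that passed the cell filter, 28 to 54 were shared between any 2 libraries. After removal of doublets 41248 cells were kept, with a median of 4312 to 5548.5 UMIs per cell. Clustering gave 50 clusters, which were named from marker genes, so that each name below stands for cells that resemble that type; 26 types were described, and the 18 with at least 20 cells in every library were compared between genotypes. A cluster of 1155 cells whose marker score was highest for alveolar fibroblasts, while the adventitial marker Mfap5 was among its 10 leading genes, is called mixed fibroblasts. Of the 9 genes, 8 were among the variable genes used for clustering; C1qa, C1qb and C1qc led the interstitial macrophage cluster, and C4b and C3 were among the 10 leading genes of the mixed fibroblasts, so levels by type are descriptions without a test. Kdr, the gene that carries the mutation, had 562 and 495 CPM (UMIs per 1000000 UMIs of the library's cells of a type) in endothelial cells of the Vegfr2Y949F libraries, against 584 and 423 CPM in those of the WT libraries, and such counts do not show a changed codon. WT A held fewer lymphoid cells than the other libraries, with 64 T cells and 13 B cells against at least 247 and 64 elsewhere.

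**Figure D1:**
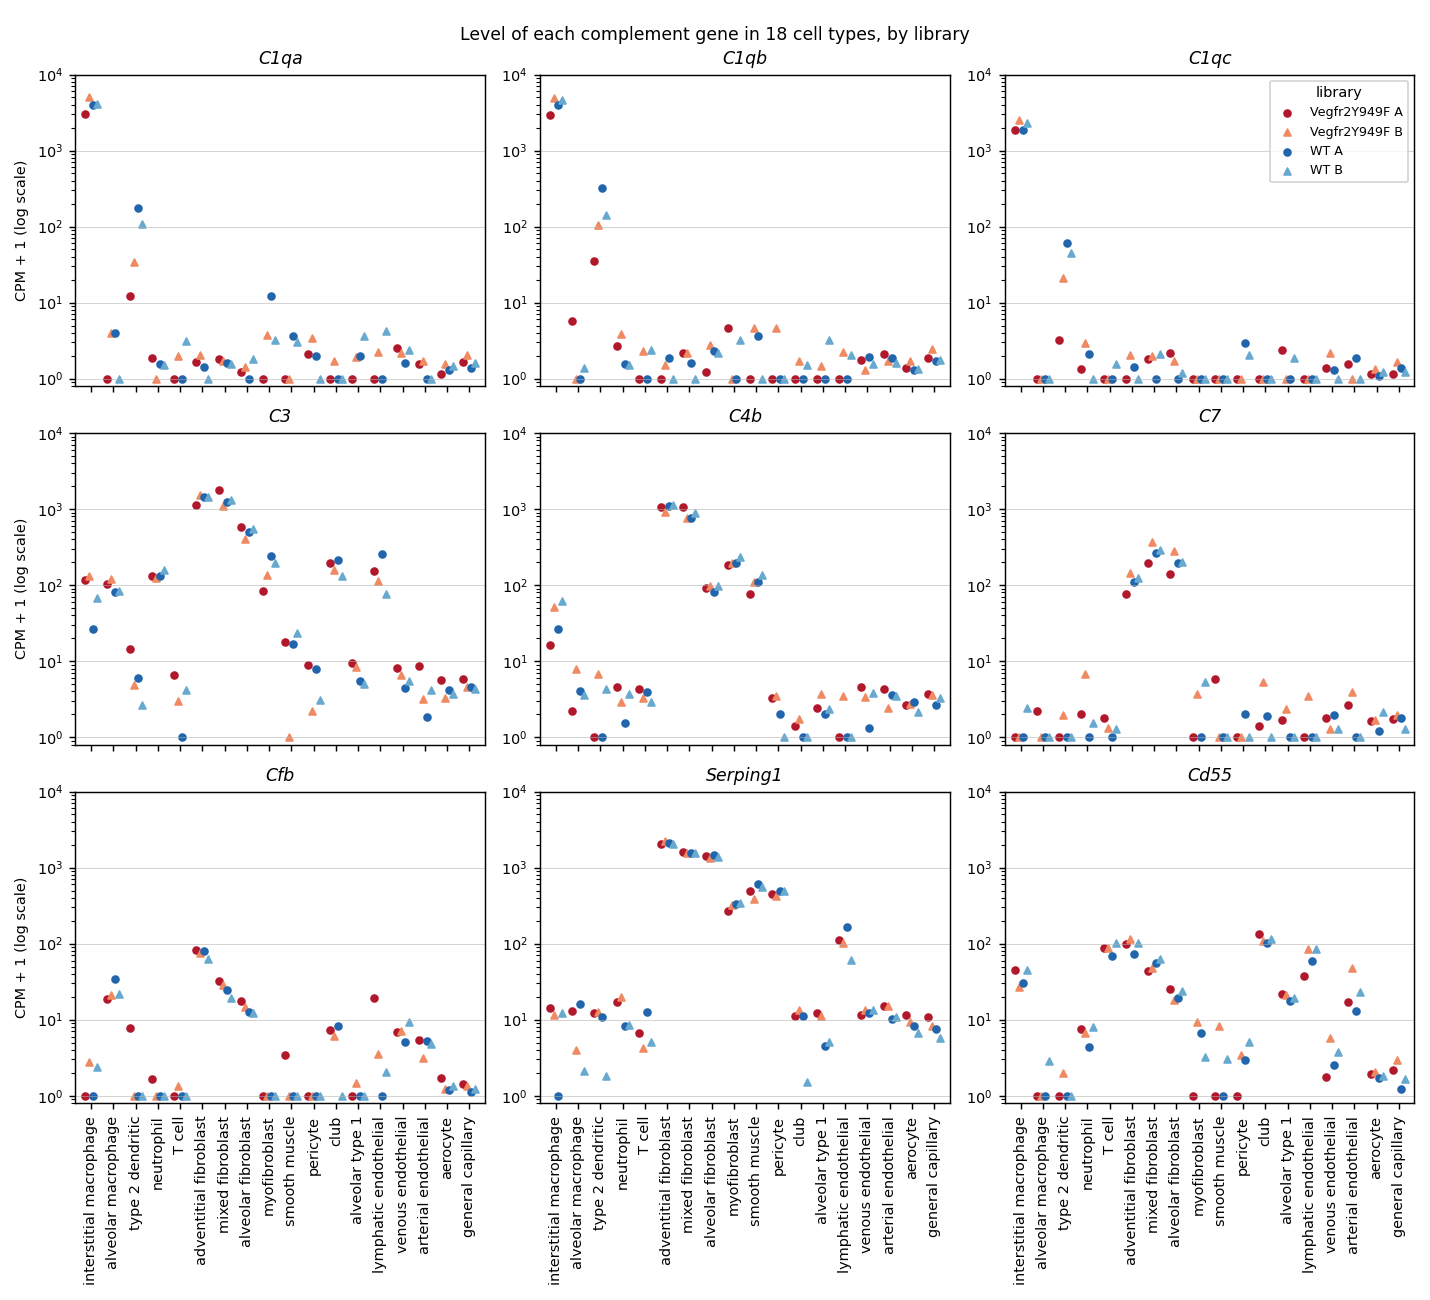
Level of each of the 9 genes (CPM + 1, log scale) in 18 cell types, with 1 point per library, Vegfr2Y949F in red shades left of WT in blue shades, circles for set A and triangles for set B. The C1q genes stand above 1000 CPM in interstitial macrophages, and C3, C4b, C7, Cfb and Serping1 have their highest levels in fibroblasts.

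The transcripts of C1q came almost wholly from interstitial macrophages. These 299 cells were 0.725% of all kept cells and held 8130 of 8542 C1qa UMIs (95.2%), 92.8% of C1qb UMIs and 95.5% of C1qc UMIs. C1qa, which encodes the A chain, had 3019 and 5063 CPM in interstitial macrophages of the Vegfr2Y949F libraries, against 3980 and 4084 CPM in those of the WT libraries. The Vegfr2Y949F libraries were the lowest and the highest of the 4, with both WT libraries between them.

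C1qb, the B chain, had 2897 and 4902 CPM there in the Vegfr2Y949F libraries and 3996 and 4595 CPM in the WT libraries. C1qc, the C chain, had 1841 and 2541 CPM in the Vegfr2Y949F libraries and 1838 and 2317 CPM in the WT libraries. The genotypes overlapped for all 3 chains, and in each genotype set A was lower than set B. With every cell thinned to 1000 UMIs, 91.0% of interstitial macrophages had a C1qa UMI (95% exact binomial interval 87.1 to 94.0%, counting error only), 92.3% a C1qb UMI and 80.9% a C1qc UMI; without thinning the shares were 98.0%, 98.0% and 95.7%. B cells, taken as a type that should lack C1q, had 0 of 325 thinned cells with a C1qa UMI, which allows up to 0.923% of cells with a UMI at this depth and sets no limit on cells that express the gene; without thinning 0.308% had one, at a median of 3064 UMIs per cell against 5915 in interstitial macrophages.

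Most interstitial macrophages held transcripts of the whole set of chains, since 284 of 299 had UMIs of all 3. Of their 20865 C1q UMIs, 39.0% were of C1qa and 40.0% of C1qb, and the rest of C1qc. Across the 18 types, mean log2(CPM + 1) of the chains had a Pearson r of 0.97 to 0.99 with each other; the 18 types share the same 4 libraries, and 1 type sets most of this value. By the same measure, among 7157 other genes that reached a mean of 50 CPM in some type, Fcrls was the most alike to each chain (r from 0.98 to 0.99), and C3ar1, the receptor for the C3a fragment of C3, was among the nearest 3 for each (r from 0.96 to 0.97).

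Among the compared types, conventional type 2 dendritic cells were next in order for each chain, apart from interstitial macrophages and from the types below. For C1qa the gap below was narrow, between 11.36 CPM in dendritic cells of Vegfr2Y949F A and 11.26 CPM (2 UMIs) in myofibroblasts of WT A. Classical monocytes, which were not compared, overlapped dendritic cells, with up to 17.4 CPM of C1qa and 61.0 CPM of C1qb, both in WT A. C1qa had 11.4 and 33.6 CPM in dendritic cells of the Vegfr2Y949F libraries, against 174 and 108 CPM in those of the WT libraries. C1qb had 34.1 and 105 CPM in the Vegfr2Y949F libraries and 318 and 140 CPM in the WT libraries. C1qc had 2.27 and 20.2 CPM in the Vegfr2Y949F libraries and 59.6 and 43.6 CPM in the WT libraries. For each chain both Vegfr2Y949F libraries were below both WT libraries.

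Few cells stood behind these levels. Of 44 and 90 dendritic cells in the Vegfr2Y949F libraries, 1 and 4 held 10 or more C1q UMIs, against 3 of 22 and 6 of 103 in the WT libraries. The 5 cells richest in C1q held 100% and 92.1% of the C1q UMIs of the dendritic cells in the Vegfr2Y949F libraries and 96.4% and 91.8% in the WT libraries. So a handful of cells held most of the transcripts in each library. In the dendritic cells under 10 C1q UMIs, C1qa was at 2.34 and 2.06 CPM in the Vegfr2Y949F libraries (1 and 2 UMIs), against 24.9 and 7.04 CPM in the WT libraries (4 and 8 UMIs). In the same cells C1qb was at 0 and 16.5 CPM in the Vegfr2Y949F libraries, against 31.1 and 8.80 CPM in the WT libraries, and C1qc at 0 and 2.06 CPM in the Vegfr2Y949F libraries, against 18.6 and 0.880 CPM in the WT libraries. In these remaining cells, on 0 to 16 UMIs a library, the genotypes overlapped for C1qb and C1qc but not for C1qa.

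The C1q-rich dendritic cells, chosen here by their C1q counts, were set beside the others by marker genes. Their 14 cells had a summed level of 254 CPM for the 6 interstitial macrophage markers, against 34.9 CPM in the other 245 dendritic cells and 3668 CPM in interstitial macrophages. The dendritic cell markers summed to 4345 CPM in these 14 cells, 1660 CPM in the other dendritic cells and 716 CPM in interstitial macrophages. The first sum thus lay between those of the other cells, and the second above both. By library, the macrophage markers in all dendritic cells summed to 52.3 and 42.2 CPM in the Vegfr2Y949F libraries, with 4 and 2 of the 6 markers at 0, and to 109 and 46.9 CPM in the WT libraries, with 3 and 1 at 0. Their part in the C1q levels was not tested. The chains also stood in other proportions than in interstitial macrophages, with 31.6% C1qa, 55.0% C1qb and 13.4% C1qc among 651 UMIs.

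**Figure D2:**
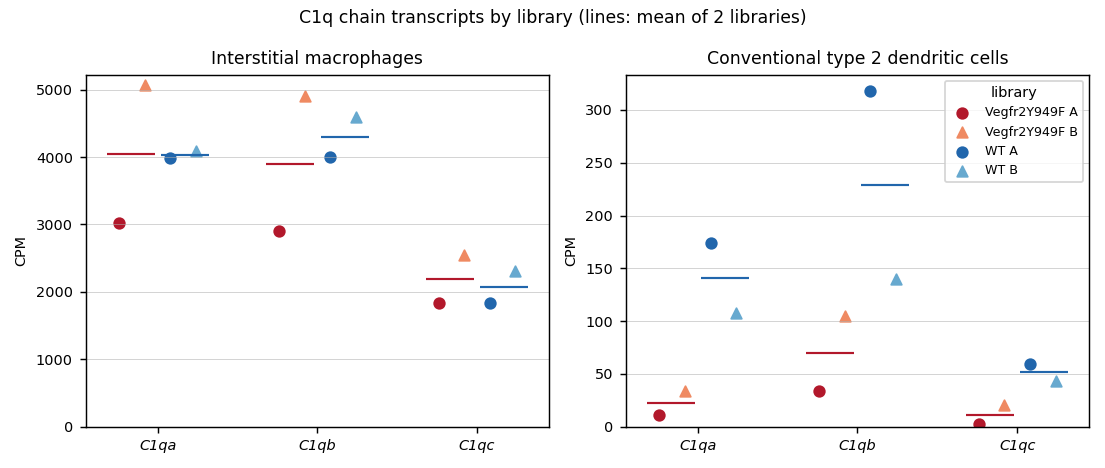
Level (CPM, axes from 0) of the 3 C1q chains in interstitial macrophages (left panel) and conventional type 2 dendritic cells (right panel), with 1 point per library, the 2 Vegfr2Y949F libraries left of the 2 WT libraries and a line at each mean. The genotypes overlap in interstitial macrophages, and in dendritic cells both Vegfr2Y949F libraries lie below both WT libraries.

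Elsewhere C1q was close to absent. Classical monocytes, which were too few in WT A for a comparison, had 6.76 and 20.9 CPM of C1qb in the Vegfr2Y949F libraries and 61.0 and 8.71 CPM in the WT libraries. Next in order among the compared types were myofibroblasts, alveolar macrophages and venous endothelial cells for C1qa (4, 4 and 15 UMIs in all), smooth muscle, myofibroblasts and neutrophils for C1qb (2, 2 and 15 UMIs), and neutrophils, pericytes and mixed fibroblasts for C1qc (6, 3 and 10 UMIs). Alveolar macrophages, the other resident macrophages of the lung, thus held 9 C1q UMIs in 445 cells. In the 16206 endothelial cells with a subtype name, 78 C1qa, 98 C1qb and 41 C1qc UMIs were found, and 16010 of these cells had none.

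The remaining components were transcripts of fibroblasts. All fibroblast types together were 12.3% of kept cells and held 84.4% of C3 UMIs, 94.3% of C4b UMIs, 93.8% of C7 UMIs, 76.8% of Cfb UMIs and 87.2% of Serping1 UMIs. By mean over the 4 libraries, C3, C4b, Cfb and Serping1 had the order adventitial, mixed, alveolar from high to low, and C7 the order mixed, alveolar, adventitial.

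C4b, a mouse C4 gene whose product forms part of the classical C3-cleaving enzyme, was highest among the compared types in adventitial fibroblasts, at 1078 and 917 CPM in the Vegfr2Y949F libraries against 1106 and 1119 CPM in the WT libraries. Mixed fibroblasts had 1054 and 774 CPM in the Vegfr2Y949F libraries and 756 and 883 CPM in the WT libraries, a range that overlapped that of adventitial fibroblasts. Both Vegfr2Y949F libraries were below both WT libraries in adventitial fibroblasts, by less than the distance between the Vegfr2Y949F pools, and the genotypes overlapped in mixed fibroblasts. Myofibroblasts had 183 and 197 CPM in the Vegfr2Y949F libraries and 197 and 236 CPM in the WT libraries, apart from the types above and below. Smooth muscle had 75.5 and 109 CPM in the Vegfr2Y949F libraries and 109 and 137 CPM in the WT libraries, and alveolar fibroblasts 90.5 and 95.2 CPM in the Vegfr2Y949F libraries and 80.8 and 95.03 CPM in the WT libraries, so these neighbours overlapped. A group of 17 Schwann cells, too few to compare, had 1382 and 2114 CPM in the Vegfr2Y949F libraries and 886 and 1569 CPM in the WT libraries.

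C3, the protein that all pathways cleave, was as high in adventitial as in mixed fibroblasts within the spread of the libraries. Adventitial fibroblasts had 1132 and 1539 CPM in the Vegfr2Y949F libraries and 1453 and 1425 CPM in the WT libraries. Mixed fibroblasts had 1795 and 1110 CPM in the Vegfr2Y949F libraries and 1229 and 1304 CPM in the WT libraries, and alveolar fibroblasts 588 and 406 CPM in the Vegfr2Y949F libraries and 493 and 551 CPM in the WT libraries. In all 3 classes the Vegfr2Y949F libraries were the lowest and the highest, with Vegfr2Y949F A below Vegfr2Y949F B in adventitial fibroblasts and above it in the other classes. Alveolar fibroblasts stood apart below the other classes, and thinned shares of cells with a C3 UMI were 52.4% in adventitial, 62.2% in mixed and 34.7% in alveolar fibroblasts, against 0.923% in B cells.

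C3 was also found outside these 3 fibroblast classes, with means over 100 CPM in myofibroblasts and in secretory, myeloid and lymphatic cells. Club cells, the secretory cells of the airways, had 194 and 159 CPM in the Vegfr2Y949F libraries and 213 and 132 CPM in the WT libraries. Myofibroblasts had 82.7 and 134 CPM in the Vegfr2Y949F libraries and 242 and 194 CPM in the WT libraries, and lymphatic endothelial cells, the next in order, 155 and 113 CPM in the Vegfr2Y949F libraries and 254 and 74.6 CPM in the WT libraries. The ranges of these neighbours overlapped, and of these 3 types the genotypes did not overlap in myofibroblasts alone. Neutrophils had 130 and 122 CPM in the Vegfr2Y949F libraries and 130 and 156 CPM in the WT libraries, and classical monocytes 297 and 170 CPM in the Vegfr2Y949F libraries and 218 and 183 CPM in the WT libraries.

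Within alveolar fibroblasts, C3 and C7 had opposite orders between the 2 clusters. The cluster led by Myh10, Gpm6b and Gpx3 had 839 and 574 CPM of C3 in the Vegfr2Y949F libraries and 667 and 623 CPM in the WT libraries, against 557 and 382 CPM in the Vegfr2Y949F libraries and 476 and 542 CPM in the WT libraries for the cluster led by Cdo1, Mfap4 and Tcf21. For C7 the first of these clusters had 106 and 207 CPM in the Vegfr2Y949F libraries and 120 and 141 CPM in the WT libraries, against 145 and 291 CPM in the Vegfr2Y949F libraries and 204 and 210 CPM in the WT libraries for the second. Both orders held in each of the 4 libraries, between clusters made from these same cells. The clusters also differed in depth, with a median UMI count of 0.327 times the library median in the first and 1.894 times in the second. Of the 8 alveolar fibroblast markers, 6 were detected in the first and 8 in the second. The part of depth in these orders was not tested.

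C7, the terminal component, was measured above 2 CPM on average in the 3 large fibroblast classes alone among the compared types. Mixed fibroblasts had 196 and 374 CPM in the Vegfr2Y949F libraries and 260 and 286 CPM in the WT libraries. Alveolar fibroblasts had 140 and 280 CPM in the Vegfr2Y949F libraries and 197 and 202 CPM in the WT libraries, and adventitial fibroblasts 74.4 and 143 CPM in the Vegfr2Y949F libraries and 110 and 122 CPM in the WT libraries. Vegfr2Y949F A was the lowest and Vegfr2Y949F B the highest library in each class, and the ranges of neighbouring classes overlapped. Neutrophils and myofibroblasts followed with 13 and 3 UMIs in all.

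Cfb, the enzyme subunit of the alternative pathway, was highest in adventitial fibroblasts, at 80.8 and 75.2 CPM in the Vegfr2Y949F libraries against 80.3 and 61.6 CPM in the WT libraries. Mixed fibroblasts had 31.3 and 27.5 CPM in the Vegfr2Y949F libraries and 23.6 and 18.5 CPM in the WT libraries, and alveolar macrophages 17.8 and 19.9 CPM in the Vegfr2Y949F libraries and 33.4 and 21.02 CPM in the WT libraries. Adventitial fibroblasts stood apart from the rest, and the genotypes did not overlap in mixed fibroblasts (Vegfr2Y949F higher) or alveolar macrophages (Vegfr2Y949F lower). Alveolar fibroblasts had 16.6 and 13.5 CPM in the Vegfr2Y949F libraries and 11.6 and 11.3 CPM in the WT libraries, and venous endothelial cells 5.88 and 6.16 CPM in the Vegfr2Y949F libraries and 4.09 and 8.29 CPM in the WT libraries. In alveolar fibroblasts both Vegfr2Y949F libraries were above both WT libraries, and in venous cells the genotypes overlapped. After thinning, 7.68% of adventitial fibroblasts had a Cfb UMI, against 36.0% without thinning and 0 of 325 thinned B cells.

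Serping1, the inhibitor of the C1 proteases, was spread over the whole stroma. Adventitial fibroblasts had 2059 and 2236 CPM in the Vegfr2Y949F libraries and 2125 and 2022 CPM in the WT libraries. Mixed fibroblasts had 1606 and 1550 CPM in the Vegfr2Y949F libraries and 1565 and 1559 CPM in the WT libraries, and alveolar fibroblasts 1424 and 1325 CPM in the Vegfr2Y949F libraries and 1465 and 1383 CPM in the WT libraries. These 3 classes stood apart in that order, with overlapping genotypes in each. Smooth muscle had 487 and 386 CPM in the Vegfr2Y949F libraries and 600 and 557 CPM in the WT libraries, and pericytes 444 and 427 CPM in the Vegfr2Y949F libraries and 499 and 486 CPM in the WT libraries, so that in both mural types the Vegfr2Y949F libraries were below the WT libraries. A Serping1 UMI was found in 85.0% of thinned adventitial fibroblasts, against 1.54% of B cells.

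Cd55, the convertase regulator on cell membranes, had no single source, since fibroblasts held 34.8% of its UMIs, club cells 15.1%, T cells 14.3% and ciliated cells 9.41%. Among the compared types, club cells had 134 and 106 CPM in the Vegfr2Y949F libraries and 99.8 and 114 CPM in the WT libraries. Adventitial fibroblasts had 97.5 and 114 CPM in the Vegfr2Y949F libraries and 72.4 and 99.8 CPM in the WT libraries, and T cells 86.7 and 86.3 CPM in the Vegfr2Y949F libraries and 67.5 and 102 CPM in the WT libraries. These neighbours overlapped, as did the genotypes in each. Lymphatic endothelial cells had 36.4 and 85.3 CPM in the Vegfr2Y949F libraries and 58.6 and 85.3 CPM in the WT libraries, and mixed fibroblasts 42.8 and 46.4 CPM in the Vegfr2Y949F libraries against 54.5 and 62.2 CPM in the WT libraries, where the genotypes did not overlap.

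Of the cell types too small to compare, ciliated and B cells had higher mean Cd55 levels than any compared type. Ciliated cells had 411 and 294 CPM in the Vegfr2Y949F libraries and 375 and 322 CPM in the WT libraries. B cells had 93.6 and 205 CPM in the Vegfr2Y949F libraries and 162 and 507 CPM in the WT libraries, in 64, 89, 13 and 159 cells. The B cell values spread over more than the difference between any neighbours in the order, and WT B held the highest. After thinning, 31.7% of B cells, 24.7% of ciliated cells and 11.3% of club cells had a Cd55 UMI; without thinning the share of club cells was 93.2%, at a median of 52967 UMIs per cell.

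**Figure D3:**
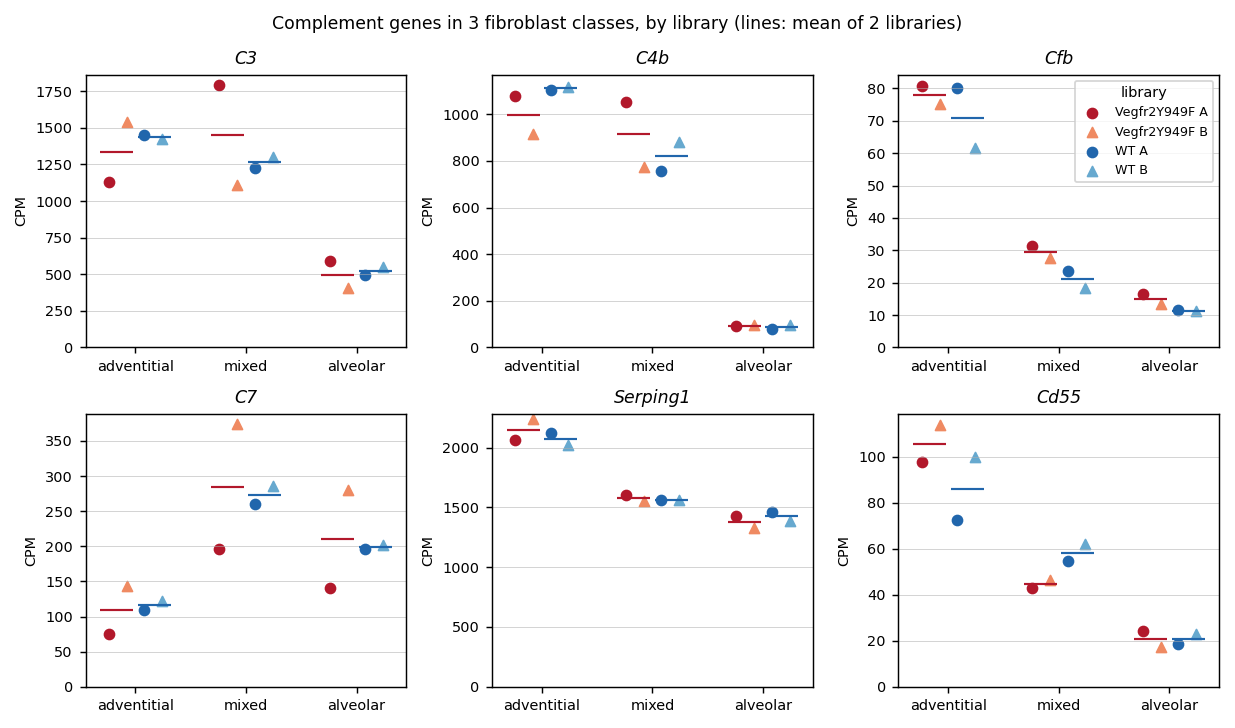
Level (CPM, axes from 0) of C3, C4b, Cfb, C7, Serping1 and Cd55 in adventitial, mixed and alveolar fibroblasts, with 1 point per library, the 2 Vegfr2Y949F libraries left of the 2 WT libraries and a line at each mean. C7 has its lowest mean in adventitial fibroblasts, where the other 5 genes have their highest.

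C3 and C4b tended to be found in the same fibroblasts. Among thinned adventitial fibroblasts with a C3 UMI, 58.2% and 61.7% also had a C4b UMI in the Vegfr2Y949F libraries and 54.3% and 53.9% in the WT libraries, against 34.8% and 36.5% (Vegfr2Y949F) and 40.0% and 43.5% (WT) of those without one. Mixed fibroblasts showed the same order in every library, with 63.8% and 53.0% in the Vegfr2Y949F libraries and 46.9% and 52.8% in the WT libraries, against 44.4% and 35.5% (Vegfr2Y949F) and 33.6% and 45.8% (WT) of cells without a C3 UMI. Alveolar fibroblasts also kept this order, with 14.4% and 11.8% (Vegfr2Y949F) and 12.6% and 10.8% (WT). Those without a C3 UMI had 5.74% and 7.33% (Vegfr2Y949F) and 3.82% and 6.05% (WT). Other pairs of genes did not keep the same order. In mixed fibroblasts of WT A, Serping1 was in 72.3% of cells with a C3 UMI and 79.7% without. In Vegfr2Y949F B it was 81.1% and 71.6%. For C7 there it was 17.8% and 22.2% in Vegfr2Y949F A, and 32.4% and 27.7% in Vegfr2Y949F B. All cells were at the same depth of 1000 UMIs. Across the 18 types, r was 0.67 between C3 and C4b, 0.74 between C3 and C7, 0.77 between C4b and C7 and 0.78 between C4b and Serping1, over types that share the 4 libraries.

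C2, the partner of C4 in the classical C3-cleaving enzyme, was the nearest to C4b (r = 0.98), followed by Pamr1 and Loxl1. Serping1 was nearest to Nox4 (r = 0.98), followed by Prelp and by C1s1, the gene of the protease that C1 inhibitor blocks (r = 0.97). C7 was nearest to Slc36a2 (r = 0.99), Cdh11 and Slc38a5. The nearest genes to C3 were Steap4 (r = 0.86), Dnajb9 and Nupr1, to Cfb Fn1 (r = 0.77), Cox6b2 and Idh1, and to Cd55 Efna5 (r = 0.66), Maf and Tceal9, so these 3 had the least shared patterns.

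Between genotypes, no complement gene changed in any of the 18 cell types at an adjusted p under 0.05. Of 162 pairs of a gene and a type, 66 passed the filter on low counts, and edgeR's quasi-likelihood test with Benjamini-Hochberg adjustment over all genes of a type called 0 of them, as did DESeq2; over all genes in the 18 types edgeR called 0.00329% of 152107 tests. The smallest adjusted p was 0.455 (edgeR), and with 1 library left out edgeR called 1 pair without Vegfr2Y949F A, 2 without WT A or WT B and 3 without Vegfr2Y949F B. At an unadjusted p under 0.05 there were 9 pairs, against 2.12% of all tests, with 4 higher in Vegfr2Y949F (1.18% of all tests) and 5 lower (0.94%). The 2 Vegfr2Y949F libraries did not overlap the 2 WT libraries in 28 of the 66 pairs, against 27.2% of all tests, with 17 higher in Vegfr2Y949F (16.7%) and 11 lower (10.5%). The log2 fold change of Vegfr2Y949F over WT was above 0 in 35 pairs and below 0 in 31.

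**Figure D4:**
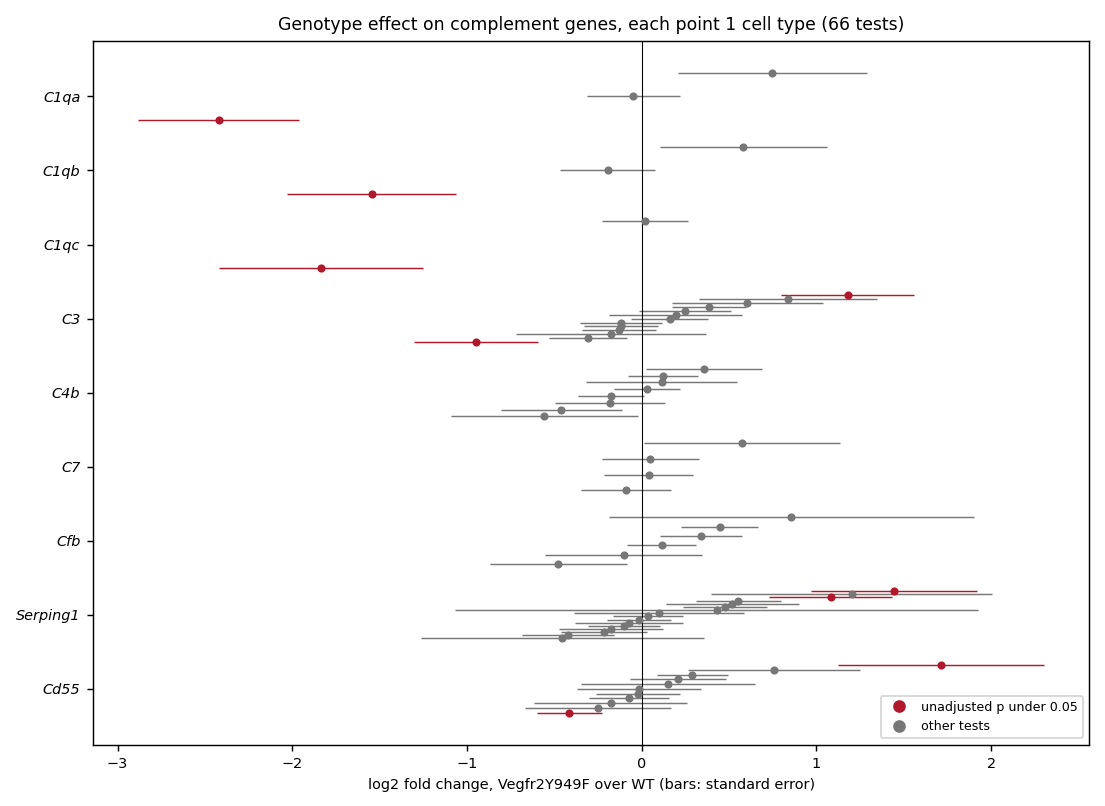
Log2 fold change of Vegfr2Y949F over WT for each complement gene, with 1 point per cell type in which it passed the filter (66 in all), bars for the standard error of edgeR and red for the 9 with an unadjusted p under 0.05. The 3 C1q points at the left edge are of conventional type 2 dendritic cells, and most other points lie within 1 of 0.

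In the main sources no fold change was called, and most were close to or below their standard errors. For the C1q chains in interstitial macrophages the log2 fold changes were -0.05 ± 0.27 (C1qa), -0.19 ± 0.27 (C1qb) and 0.02 ± 0.25 (C1qc), each with its standard error from edgeR. In adventitial fibroblasts they were -0.12 ± 0.21 for C3, -0.17 ± 0.19 for C4b, -0.09 ± 0.26 for C7, 0.12 ± 0.20 for Cfb, 0.04 ± 0.20 for Serping1 and 0.29 ± 0.20 for Cd55. In mixed fibroblasts they were 0.16 ± 0.22 for C3, 0.12 ± 0.20 for C4b, 0.04 ± 0.26 for C7, 0.45 ± 0.22 for Cfb, -0.02 ± 0.18 for Serping1 and -0.41 ± 0.19 for Cd55. Cfb and Cd55 there, and Cd55 in adventitial fibroblasts, exceeded their standard errors. Over all fibroblasts together, 7 of the 9 genes passed the filter, 0 were called (edgeR and DESeq2; background 0.0157%), 0 had an unadjusted p under 0.05, 0 did not overlap between genotypes (25.2% of all genes) and the median was -0.07, against -0.0076 over all genes tested.

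The 3 largest fold changes below 0 were those of the C1q chains in conventional type 2 dendritic cells, whose per-library values stand above. C1qa had a log2 fold change of -2.42 ± 0.46 (edgeR, unadjusted p = 0.000106, adjusted p = 0.455), C1qb of -1.55 ± 0.48 (unadjusted p = 0.0063) and C1qc of -1.84 ± 0.58 (unadjusted p = 0.00687). With each library left out in turn, C1qa was called by edgeR at -3.62 to -1.94, and without Vegfr2Y949F B so were C1qb (-2.74) and C1qc (-4.40). In an edgeR fit of the genotype by type interaction with Benjamini-Hochberg adjustment, the effect on C1qa in interstitial macrophages exceeded that in dendritic cells by 2.43 (adjusted p = 0.0239), the 1 call among 6169 genes (0.0162%). The differences for C1qb, 1.38, and C1qc, 1.86, had an adjusted p of 1 (edgeR). With 1 library left out they ran from 0.76 (without WT A) to 2.12 for C1qb, which was called without WT B (edgeR, adjusted p = 0.00407), and from 1.38 (without Vegfr2Y949F A) to 4.03 (without Vegfr2Y949F B) for C1qc, which was called in none of these fits.

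The C1qa call depended on which cells were counted as dendritic. When cells were clustered without the 9 genes, an alternative added after the data were seen for this interaction, 4 interstitial macrophages joined the dendritic cells, and the number of dendritic cells with 10 or more C1q UMIs became 1 and 6 in the Vegfr2Y949F libraries, against 3 and 6 in the WT libraries. C1qa in dendritic cells was then 11.3 and 137 CPM in the Vegfr2Y949F libraries and 175 and 108 CPM in the WT libraries, so the genotypes overlapped. The interaction was then 0.97 (edgeR, unadjusted p = 0.0777, adjusted p = 1). Without Vegfr2Y949F B it was 3.07 and no longer called (edgeR, adjusted p = 0.623), and with stricter cells it was 3.67 and called (edgeR, adjusted p = 0.000389).

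The interaction was also fitted for the other members in their 2 main sources, and none was called by edgeR. Between mixed and adventitial fibroblasts (background 0.0276%) the difference was 0.27 for C3 and 0.30 for C4b (unadjusted p = 0.245 and 0.0327 by edgeR), and adventitial minus mixed it was -0.34 for Cfb (edgeR, unadjusted p = 0.124). Between alveolar and mixed fibroblasts (background 0.0513%) it was -0.0048 for C7 and -0.08 for Serping1, and between club and T cells (background 1.37%) it was -0.08 for Cd55.

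C3 had an unadjusted p under 0.05 in 2 types, with opposite signs. In interstitial macrophages it had 117 and 130 CPM in the Vegfr2Y949F libraries against 25.3 and 67.04 CPM in the WT libraries. These levels stood on 53 and 74 UMIs against 6 and 48 UMIs, in 20 and 19 cells against 4 and 20 cells. The 5 richest cells held 52.8% to 100% of the UMIs of a library. The log2 fold change was 1.18 ± 0.38 (edgeR, unadjusted p = 0.0096), and it was 2.23 without WT B. The 7 neutrophil markers summed there to 922 and 107 CPM in the Vegfr2Y949F libraries and 92.7 and 156 CPM in the WT libraries, with Cxcr2 at 0 in all 4, and the 8 alveolar fibroblast markers to 280 and 94.5 CPM in the Vegfr2Y949F libraries and 67.5 and 71.2 CPM in the WT libraries, with Slc7a10 and Fgfr4 at 0 in all 4. Both marker sums were highest in Vegfr2Y949F A, and their part in the C3 value was not tested. In myofibroblasts the log2 fold change of C3 was -0.95 ± 0.36 (edgeR, unadjusted p = 0.0178), on 23 and 49 UMIs in the Vegfr2Y949F libraries against 43 and 89 UMIs in the WT libraries. The 7 adventitial fibroblast markers summed there to 2185 and 1974 CPM in the Vegfr2Y949F libraries and 2510 and 2475 CPM in the WT libraries, with Serpinf1 at 0 in all 4; their part was not tested.

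Serping1 had an unadjusted p under 0.05 in 2 types outside the stroma, both at low levels. In alveolar type 1 cells there were 16 and 22 UMIs in the Vegfr2Y949F libraries, against 7 and 9 UMIs in the WT libraries. The log2 fold change was 1.44 ± 0.48 (edgeR, unadjusted p = 0.00795). These UMIs lay in 8 and 10 cells of the Vegfr2Y949F libraries and in 7 and 6 cells of the WT libraries. The 5 richest cells held 81.25% and 77.3% of them in the Vegfr2Y949F libraries and 71.4% and 88.9% in the WT libraries. Over all alveolar type 1 cells, the 8 alveolar fibroblast markers summed to 3051 and 2596 CPM in the Vegfr2Y949F libraries. In the WT libraries they summed to 3199 and 2557 CPM, so the genotypes overlapped for them. Their part in the Serping1 values was not tested. In neutrophils there were 94 and 20 Serping1 UMIs in the Vegfr2Y949F libraries and 13 and 14 in the WT libraries, a log2 fold change of 1.08 ± 0.35 (edgeR, unadjusted p = 0.0139). The same markers summed in neutrophils to 189 and 165 CPM in the Vegfr2Y949F libraries and 79.8 and 97.8 CPM in the WT libraries, with Fgfr4 at 0 in WT B, and thus moved with Serping1; their part was not tested.

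Cd55 had an unadjusted p under 0.05 in general capillary cells, on 22 and 35 UMIs in the Vegfr2Y949F libraries against 4 and 11 in the WT libraries, with a log2 fold change of 1.71 ± 0.59 (edgeR, unadjusted p = 0.0246). Its level there, over 2161 to 2962 cells per library, lay between 0.243 and 1.92 CPM. The 6 B cell markers summed there to 5.93 and 3.78 CPM in the Vegfr2Y949F libraries and 2.55 and 6.56 CPM in the WT libraries, with overlapping genotypes. The capillary cluster led by Plvap, Ifit1 and Lyve1 held 611 and 791 cells in the Vegfr2Y949F libraries, against 62 and 76 in the WT libraries. It had the highest mean Cd55 of the capillary clusters, 2.17 CPM (SD 1.86) against 0.307 to 0.843 CPM in the others. By library it had 1.71 and 4.48 CPM in the Vegfr2Y949F libraries and 0 and 2.49 CPM in the WT libraries. This range overlapped that of the cluster led by Mcf2l, Hey1 and Glp1r, which reached 2.26 CPM in WT B. Over all general capillary cells, the 5 richest held 31.8% and 51.4% of the Cd55 UMIs in the Vegfr2Y949F libraries and 100% and 45.5% in the WT libraries. The part of the Plvap-led cluster in the Cd55 fold change was not tested. In mixed fibroblasts the log2 fold change of Cd55 was -0.41 ± 0.19 (edgeR, unadjusted p = 0.0452).

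Blood endothelial cells, a type in which Kdr was measured above, had low levels of the 9 genes; lymphatic endothelial cells, described above for C3 and Cd55, are not part of this sum. Over general capillary, aerocyte, arterial and venous cells together, Serping1 had 10.4 and 8.36 CPM in the Vegfr2Y949F libraries against 7.34 and 6.15 CPM in the WT libraries, and C3 had 5.09 and 3.37 CPM in the Vegfr2Y949F libraries against 3.32 and 3.24 CPM in the WT libraries. In both, the Vegfr2Y949F libraries were above the WT libraries. Of the 9 genes 8 passed the filter, and edgeR and DESeq2 called 0 of them, with 0 at an unadjusted p under 0.05; the background of calls was 0.0% of 13542 genes (edgeR). The fold change was above 0 in 7 of the 8, with a median of 0.46 against -0.0040 over all genes, and 5 of the 8 did not overlap between genotypes, against 22.2% of all genes. When the endothelial clusters without a subtype were added to the sum, all 9 passed, 8 were above 0, the median was 0.29 and 2 did not overlap (22.1% of all genes). The 325 B cells, a background type, held 25 Serping1, 11 C3, 5 C4b, 2 C7, 1 C1qa, 1 C1qb and 0 Cfb UMIs. The 16206 named endothelial cells held 1060, 494, 273, 89, 78, 98 and 137 UMIs of these genes in the same order. These counts are not levels, since the B cells held 74326 to 545670 UMIs of all genes per library and the named endothelial cells 30913438 to 36159773. The higher endothelial counts therefore do not show higher levels. Whether the endothelial levels stand above this background was not tested.

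The rest of the complement system was read from a list of 50 other genes, of which 49 were in the tables and 30 passed the filter in some type. In 234 tests edgeR and DESeq2 called 0, and 10 (4.27%) had an unadjusted p under 0.05, with 6 higher and 4 lower in Vegfr2Y949F; the median log2 fold change was 0.0050, against -0.0015 over all tests. Over all endothelial cells 26 of the list passed, 16 of them above 0 with a median of 0.12, and over all fibroblasts 24 passed, 10 of them above 0 with a median of -0.02.

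In the classical and lectin pathways the highest levels were those of the proteases C1ra and C1s1 and of the collectin Colec12. C1s1 had 815 and 681 CPM in adventitial fibroblasts of the Vegfr2Y949F libraries and 734 and 654 CPM in those of the WT libraries. C1ra had 448 and 491 CPM there in the Vegfr2Y949F libraries and 478 and 447 CPM in the WT libraries, and Colec12 had 656 and 690 CPM in alveolar fibroblasts of the Vegfr2Y949F libraries and 666 and 661 CPM in those of the WT libraries. All 3 had overlapping genotypes and, like C4b and Serping1, their highest level in fibroblasts.

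In the alternative and terminal pathways, properdin (Cfp), which stabilises the alternative enzyme, had 194 and 119 CPM in interstitial macrophages of the Vegfr2Y949F libraries and 164 and 191 CPM in those of the WT libraries. Factor D (Cfd), the protease that activates factor B, stayed below 1 CPM in each library of its highest type, adventitial fibroblasts. C6 had its highest mean in club cells, at 20.9 and 29.8 CPM in the Vegfr2Y949F libraries and 48.5 and 16.1 CPM in the WT libraries. Over the 4 libraries this was 28.8 ± 14.3 CPM (SD), and its range overlapped those of alveolar (26.05 ± 3.06 CPM) and mixed fibroblasts (24.7 ± 13.2 CPM). Hc, the mouse C5 gene, and C8g had means of at most 3.22 CPM in any compared type. Hc was among the 10 leading genes of alveolar type 2 cells, which were too few to compare. The genotypes overlapped for Cfp and C6.

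The receptors and regulators described here were highest in endothelial cells and fibroblasts. Cd93 had 1412 and 1354 CPM in general capillary cells of the Vegfr2Y949F libraries and 1105 and 1166 CPM in those of the WT libraries, so both Vegfr2Y949F libraries were higher, though edgeR did not call it. Calr was highest in lymphatic endothelial cells (mean 819 ± 245 CPM, SD over the 4 libraries) and Lrp1 in mixed fibroblasts (702 ± 91.9 CPM). Clu, which blocks the terminal complex, had 429 and 546 CPM in aerocytes of the Vegfr2Y949F libraries against 624 and 601 CPM in those of the WT libraries, and Thbd had 2805 and 1966 CPM in venous endothelial cells of the Vegfr2Y949F libraries and 2467 and 2089 CPM in those of the WT libraries. Of these, the genotypes did not overlap for Cd93 and Clu.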

How the data were processed

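Single-cell RNA was measured in 4 libraries of pooled lung cells. The deposited tables hold raw UMI counts per gene and cell, made with Cell Ranger 6.1.1, per the file headers; fastp, UMI-tools, Seurat 4.1.0 and mm10 are named in the submitters' processing notes. The labels do not name the mouse sex. The 9 genes, the other gene lists and the naming thresholds were chosen with earlier results of these data known.

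Cells with at least 500 genes, 1000 UMIs and at most 15% mitochondrial UMIs were kept. The automatic doublet threshold did not work, so the 8% of cells with the highest doublet scores were removed per library. Cells were clustered with scanpy 1.11.5 (2000 variable genes, 40 components, Leiden resolution 2) and named from at least 3 detected markers with a score lead of 0.2; 3335 cells in unnamed clusters and 6533 in endothelial clusters without a subtype entered no single type. UMIs were summed per library and type, and types with at least 20 cells in each library were tested with edgeR 4.0.16 (quasi-likelihood, TMM, filterByExpr, R 4.3.3), with DESeq2 1.42.0 as an alternative. The scripts were tested on simulated data. CPM are UMIs per 1000000 UMIs of the library's cells of that type, and intervals cover counting error only.

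Genes named are the 9 members with the 5 compared types of highest mean CPM, the 3 most alike genes by Pearson correlation, and up to 3 other complement genes per pathway step. Of 31253 identifiers, 31107 were in GENCODE M21. C4a was not analysed here, 1 further gene that this rule names is not reported here, and the set letter was not used as a block in the reported tests.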

Additional observations from a re-analysis of the deposited data

Results flagged for a closer look

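The genotype effect on C1qa differed between 2 cell types by a test of the difference itself. The log2 fold change of Vegfr2Y949F over WT was 2.43 higher in interstitial macrophages than in conventional type 2 dendritic cells (edgeR interaction term, adjusted p = 0.0239). With cells clustered without the 9 complement genes the difference was 0.97 (edgeR, adjusted p = 1), after 2 C1q-rich cells of Vegfr2Y949F B had moved to the dendritic cells; what these cells are was not tested.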

How the results depend on the processing

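In 237 pairs of a main fold change and an alternative, 206 kept their direction and their side of the threshold, 9 became calls and 22 turned direction; 3 pairs could not be fitted, since stricter cells left under 20 dendritic cells in a library. The number of complement calls, 0 in the reported tests, was 1 without the low-count filter and 1 to 3 when 1 library was left out; it stayed 0 with RLE factors, DESeq2, stricter cells and clustering without the 9 genes. C1qa in dendritic cells was the call without the filter (-2.37, adjusted p = 4.8e-05 by edgeR) and was called without each library in turn (-3.62 to -1.94). Without Vegfr2Y949F B, C1qb (-2.74) and C1qc (-4.40) were also called there, without WT B C3 in interstitial macrophages (2.23, adjusted p = 0.0398 by edgeR), and without WT A Serping1 in club cells (3.99, adjusted p = 0.00466 by edgeR). Over all genes in the 18 types the number of calls was 5, and 26 with DESeq2, 478 without the filter and 269 to 583 with 1 library left out. In these fits the lone library of a genotype is assumed to vary like the pair of the other. The causes were not tested.

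With the set letter as a replicate block, 1 complement test (C1qa in dendritic cells, -2.41, adjusted p = 0.0175 by edgeR) and 541 genes were called, and C7 in mixed fibroblasts was at -0.033. Libraries of the same letter deviated together, with correlations of 0.0589 to 0.575 over types, which is a hint from the data with 2 pairs and not from the design.

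Fold changes near 0 turned direction. C1qc in interstitial macrophages was -0.0012 without the filter and -0.0042 with stricter cells, Cd55 in club cells 0.0061 with stricter cells, and Cd55 in T cells 0.0018 without the filter, 0.0017 with the block and 0.13 when clustered without the 9 genes. With 1 library left out, the ranges were -0.52 to 0.28 (C1qa), -0.67 to 0.14 (C1qb) and -0.28 to 0.24 (C1qc) in interstitial macrophages; -0.39 to 0.10 (C3), -0.072 to 0.33 (Cfb) and -0.055 to 0.11 (Serping1) in adventitial fibroblasts; -0.19 to 0.45 (C3), -0.081 to 0.30 (C4b) and -0.54 to 0.45 (C7) in mixed fibroblasts; and -0.25 to 0.21 in club and -0.32 to 0.51 in T cells (Cd55). The C1qa interaction was 2.14 to 3.07 with 1 library left out, 2.43 with RLE factors and 0.97 when clustered without the 9 genes. With stricter cells, which left 17 dendritic cells in WT A, it was 3.67.

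With doublets kept, the C1q chains in interstitial macrophages were at 3359 CPM (C1qa, against 4036 CPM), 3513 CPM (C1qb, against 4098 CPM) and 1775 CPM (C1qc, against 2134 CPM), and only the last moved by more than 1 SD of the libraries; no level reported for a highest type moved further than -16.8%. Clustered without the 9 genes, C3 was highest in mixed fibroblasts (1418 CPM, against 1383 CPM in adventitial). Shares without thinning were 98.0% (C1qa), 98.0% (C1qb), 95.7% (C1qc), 82.8% (C3), 80.7% (C4b), 82.3% (C7), 36.0% (Cfb), 99.2% (Serping1) and 93.2% (Cd55) in the type of highest level; depth limits such shares, which at 1000 UMIs a cell were 11.3% for Cd55 and 7.68% for Cfb.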
